A study of Mus musculus with 6 samples.

Results

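Sox7, Sox17 and Sox18 form the F group of the Sox family (SoxF), and the 3 genes were taken by name out of 21938 protein-coding genes to describe where GATA4 and GATA6 were called beside them in mouse extra-embryonic endoderm (XEN) cells. A region was assigned to a gene when it touched the gene body or the 50 kb to either side of a transcription start site (TSS). Of the regions found in every replicate of a factor, 7 of 8282 for GATA4 and 5 of 5170 for GATA6 fell in these windows. Sox7 had 3 GATA4 and 2 GATA6 regions, Sox17 had 3 of each, and Sox18 had 1 GATA4 region and no GATA6 region.

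CUT&RUN, in which an antibody guides a nuclease to cut the DNA beside a bound protein, was carried out with 3 libraries for GATA4 and 3 for GATA6. All 6 libraries came from starting XEN cells of the reprogrammable line 3F2, each from 500000 cells, with no treatment named. All therefore carried 3 alleles. Col1a1-TetO-OKSmCh is a doxycycline-inducible cassette of Oct4, Klf4, Sox2 and mCherry, R26-M2rtTA is its transactivator, and Oct4-GFP is a pluripotency reporter. The labels name this single line, while the study's methods name 3F6 beside it and fewer replicates, so an SD here describes 3 libraries that may or may not be separate cultures.

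Sox proteins bind DNA through an HMG box and bend it, and the F group is best known from endothelium and endoderm. Sox17 and Sox7 are both switched on in the primitive endoderm, the layer of the blastocyst that forms the yolk sac endoderm and from which XEN cells derive, and Sox17 is also required for definitive endoderm. Sox18 is known mainly from blood and lymphatic vessels. GATA4 and GATA6 are zinc finger factors that bind the letters GATA in DNA and define the same primitive endoderm lineage. The lists hold called regions and no expression, so the identity of the cells could not be checked through their RNA. Regions for both factors lay at all 6 of the primitive endoderm marker genes taken (Gata4, Gata6, Sox17, Sox7, Pdgfra and Dab2), and of 3 pluripotency genes 1 (Nanog) had a GATA4 region and of 3 trophoblast genes 1 (Eomes) did, with no GATA6 region at any of those 6. For comparison, 48.2% of all protein-coding genes had a GATA4 region and 38.3% a GATA6 region, and 2 of the endoderm markers are SoxF genes themselves. The markers were chosen with earlier results of these data known, and these calls do not check the identity of the cells. In a longer list of 18 genes of primitive endoderm formation, which shares some of these markers, 13 had regions of both factors. Of all 21938 protein-coding genes, 7419 had regions of both, and the windows of the listed genes differ in length.

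The sequences below are those under the strongest and most shared SoxF regions, 201 bases each, centred on the median position of the signal maximum (the summit) and read from GRCm38.p6 on the + strand. They are shown because the regions differ in how many GATA motifs lie under the summit. Capitals mark a GATA motif, the letters GATA with A or T before them and A or G after them, such as AGATAA. The motif appears reversed and complemented, for example as TTATCT, where it lies on the - strand. Kilobases count from the 5′ end of the gene, negative upstream.
Sox17 -40.6 kb, main summit, chr1:4537470-4537670: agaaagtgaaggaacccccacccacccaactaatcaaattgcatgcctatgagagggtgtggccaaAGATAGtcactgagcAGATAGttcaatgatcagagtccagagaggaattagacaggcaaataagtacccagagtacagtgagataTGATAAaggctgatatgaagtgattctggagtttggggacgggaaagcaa
Sox17 -40.6 kb, second summit, chr1:4538404-4538604: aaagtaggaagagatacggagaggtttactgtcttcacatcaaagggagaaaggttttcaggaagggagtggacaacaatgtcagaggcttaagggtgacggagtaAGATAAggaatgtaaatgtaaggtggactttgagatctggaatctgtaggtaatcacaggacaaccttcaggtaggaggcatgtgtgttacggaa
Sox17 +23.0 kb, main summit, chr1:4474528-4474728: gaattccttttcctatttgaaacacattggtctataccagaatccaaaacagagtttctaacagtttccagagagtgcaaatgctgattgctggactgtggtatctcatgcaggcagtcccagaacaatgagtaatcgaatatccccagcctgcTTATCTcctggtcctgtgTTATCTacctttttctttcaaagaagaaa
Sox7 -0.8 kb, main summit, chr14:63942419-63942619: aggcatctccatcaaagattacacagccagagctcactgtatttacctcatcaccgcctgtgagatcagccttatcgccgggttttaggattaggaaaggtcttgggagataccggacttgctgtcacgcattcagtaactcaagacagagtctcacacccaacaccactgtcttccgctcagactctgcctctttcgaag
Sox7 -34.9 kb, chr14:63908612-63908812: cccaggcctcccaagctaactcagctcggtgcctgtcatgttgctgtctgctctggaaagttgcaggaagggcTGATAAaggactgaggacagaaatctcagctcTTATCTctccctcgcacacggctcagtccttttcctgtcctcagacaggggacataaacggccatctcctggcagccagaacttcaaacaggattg
Sox7 +14.2 kb, chr14:63957855-63958055: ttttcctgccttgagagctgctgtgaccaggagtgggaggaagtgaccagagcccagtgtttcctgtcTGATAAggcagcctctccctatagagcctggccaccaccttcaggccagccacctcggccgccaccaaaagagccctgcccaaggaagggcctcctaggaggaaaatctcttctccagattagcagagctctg

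The main summit at Sox17 -40.6 kb had 3 GATA motifs, at -32, -17 and 53 bp from its centre, and 9.07% of the regions held by all 6 libraries had as many in such a window. The second summit there had 1 motif 8 bp from its centre, and a SOX motif (AACAAT) at -24 bp. At Sox17 +23.0 kb, 2 GATA motifs lay 56 and 74 bp to the side of the main summit and an AACAAT motif at 25 bp. The Sox7 -34.9 kb window held 2 GATA motifs, the Sox7 +14.2 kb window 1, and the Sox7 -0.8 kb window none. With windows centred on the median of the libraries' strongest summits, 1 of the 4 SoxF regions held by all 6 libraries had a motif. The share over all 3793 regions held by 6 libraries was 41.3%. The regions that overlapped an annotated untranslated exon, at Sox17 +3.7 kb and at Sox18, held no GATA motif in their windows and are not printed.

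Sox17 (ENSMUSG00000025902.13) lies at chr1:4490931-4497354 on the - strand. It encodes the F-group factor used most widely as a primitive endoderm marker. The gene is isolated: no other protein-coding gene has a TSS in its window of 103.8 kb, and all 6 of its combined regions lie nearer to a Sox17 TSS than to any other. Its 3 GATA4 and 3 GATA6 regions overlapped pairwise at 3 places, at -40.6, +3.7 and +23.0 kb. Some 5.26% of all protein-coding genes had 3 or more regions of each factor, and on its own chromosome 7.7% had 3 or more GATA4 and 4.64% had 3 or more GATA6 regions.

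The distal upstream region led the window. The GATA4 region at chr1:4537192-4538878 and the GATA6 region at chr1:4536905-4539022 are intergenic and begin 39838 and 39551 bp from the nearest Sox17 TSS. In the GATA4 libraries the region ranked 34 of 49597, 157 of 46646 and 672 of 48397 by total signal, which is the fragment pileup summed over its bases. In the GATA6 libraries it ranked 71 of 46484, 289 of 42446 and 3602 of 44539. As percentiles of total signal within a library's own list, these ranks came to 99.9, 99.7 and 98.6 in the GATA4 libraries and to 99.8, 99.3 and 91.9 in those of GATA6. On this measure the factors overlapped and GATA6 replicate 3 was the lowest library. The means were 99.4 ± 0.698 and 97.0 ± 4.44 (SD, n = 3 each, two-sided exact permutation p = 0.6), and without GATA6 replicate 3 the difference turned to -0.181. By the other measures of signal the factors did not overlap. The percentiles of maximum signal, the highest stack of fragments, were 99.8, 99.4 and 99.5 in the GATA4 libraries against 96.2, 98.1 and 91.9 in those of GATA6, and those of total signal per base pair were 99.3, 99.6 and 98.7 against 89, 97.9 and 97.5. Each gave a two-sided exact permutation p of 0.1 (n = 3 each), the smallest that 3 against 3 libraries allow, and 0.2 after Benjamini-Hochberg adjustment over the 4 places held by all 6 libraries. Among the 3793 regions held by all 6 libraries, 9.02% had as high a mean percentile over the 6 lists, and their median was 88.2.

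The upstream region consisted of more than 1 summit. All 6 libraries had a summit within 213 bp of one another at the main position, with a maximum of 26, 19 and 19 stacked fragments for GATA4. The GATA6 maxima there were 10, 11 and 8. These maxima are not scaled for depth, so the factors were not compared on them. A second summit 934 bp farther from the gene formed a region of its own in GATA4 replicates 2 and 3 and in GATA6 replicate 2, with percentiles of 89, 91.7 and 87.4, and the broad regions of GATA4 replicate 1 and GATA6 replicate 1 reached past its centre. GATA6 replicate 2 alone had a further, weak region on the gene's side at percentile 12.4. The 2118 bp covered by any library held 6 GATA motifs, at -154, -32, -17, 53, 479 and 942 bp from the main summit.

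Downstream of Sox17, at +23.0 kb, the GATA4 region is chr1:4473646-4475218 and the GATA6 region chr1:4474348-4474759, both intergenic, 18386 and 18845 bp from the nearest Sox17 TSS. Its percentiles were 99.8, 97.4 and 96.5 in the GATA4 libraries and 61.9, 48.9 and 91.3 in the GATA6 libraries. By total signal every GATA4 value lay above every GATA6 value. The means were 97.9 ± 1.68 and 67.4 ± 21.7 (SD, n = 3 each), a difference of 30.5 percentile points with a two-sided exact permutation p of 0.1, and 0.4 after Benjamini-Hochberg adjustment over the 4 places. The separation did not hold on the other measures. By maximum signal the percentiles were 95.5, 96.8 and 92.3 against 71.6, 90.7 and 96.1, a difference of 8.73 (exact permutation p = 0.3), and by signal per base pair 94.1, 98.8 and 96.8 against 85.6, 82.9 and 95.5, a difference of 8.62 (exact permutation p = 0.2), and on both the factors overlapped.

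Whether the factors separated thus depended on the measure at each of the 4 places held by all 6 libraries, and on no measure did they separate at all 4. Over all 3793 such regions, the GATA4 values lay entirely above the GATA6 values at 13.9% by total signal, 17% by maximum signal and 13.5% by signal per base pair, and the reverse held at 5.72%, 7.28% and 4.85%.

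The +23.0 kb region too was split in some libraries. A main summit was present in all 6, spread over 369 bp, and a side summit 700 bp farther downstream of the gene formed its own region in GATA4 replicate 2 at percentile 97.4 and in GATA6 replicates 2 and 3 at 25.1 and 82.2. With the main summit alone, GATA4 replicate 2 stood at 95.3, still above the highest GATA6 library. The position of the motif window mattered here. Centred on the leading summit of each library, which for GATA4 replicate 2 is the side summit, the window held no GATA motif, and centred on the main summit, 60 bp away, it held the 2 shown above.

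The region within the gene, at +3.7 kb, covers the start sites of a pair of short Sox17 transcripts, at positions 4493604 and 4493735, in annotated untranslated exon. The GATA4 region is chr1:4493415-4493883 and the GATA6 region chr1:4493537-4493926. The GATA4 percentiles of 75.5, 77.9 and 74.9 were close to one another and averaged 76.1 ± 1.6 (SD, n = 3). Those of GATA6, 92.3, 60.6 and 40.2, were far apart and averaged 64.4 ± 26.3 (SD, n = 3, two-sided exact permutation p = 0.6), and without GATA6 replicate 3 the difference of 11.7 turned to -0.367. Both the spread and the order turned with the measure. By signal per base pair the GATA6 libraries stood together at 97.3, 92.5 and 93.8, all above the GATA4 libraries at 65.7, 87.7 and 89.8 (exact permutation p = 0.1), and by maximum signal they averaged 88.9 ± 7.45 against 77.6 ± 12.8 (SD, n = 3 each, exact permutation p = 0.3). Summits lay within 84 bp of one another in the 6 libraries, although 89% of regions held by all 6 libraries had as high a mean percentile. Neither combined region held a GATA motif anywhere along its length, and the summit window was 69.2% G and C. When only the stronger 50% of each library's regions was kept, the +3.7 kb and +23.0 kb regions left the GATA6 list and 1 GATA6 region remained at Sox17, whereas the 3 GATA4 regions stayed.

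The other 6 Sox17 start sites lie between 4496330 and 4497354. A region covering most of them, chr1:4496007-4497035, was called in GATA4 replicates 1 and 3 at percentiles 72.6 and 91.7 and in no GATA6 library, and so is in neither combined list. A region at +17.6 kb was likewise called in GATA4 replicates 1 and 2, at 83.2 and 59.

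**Figure D1:**
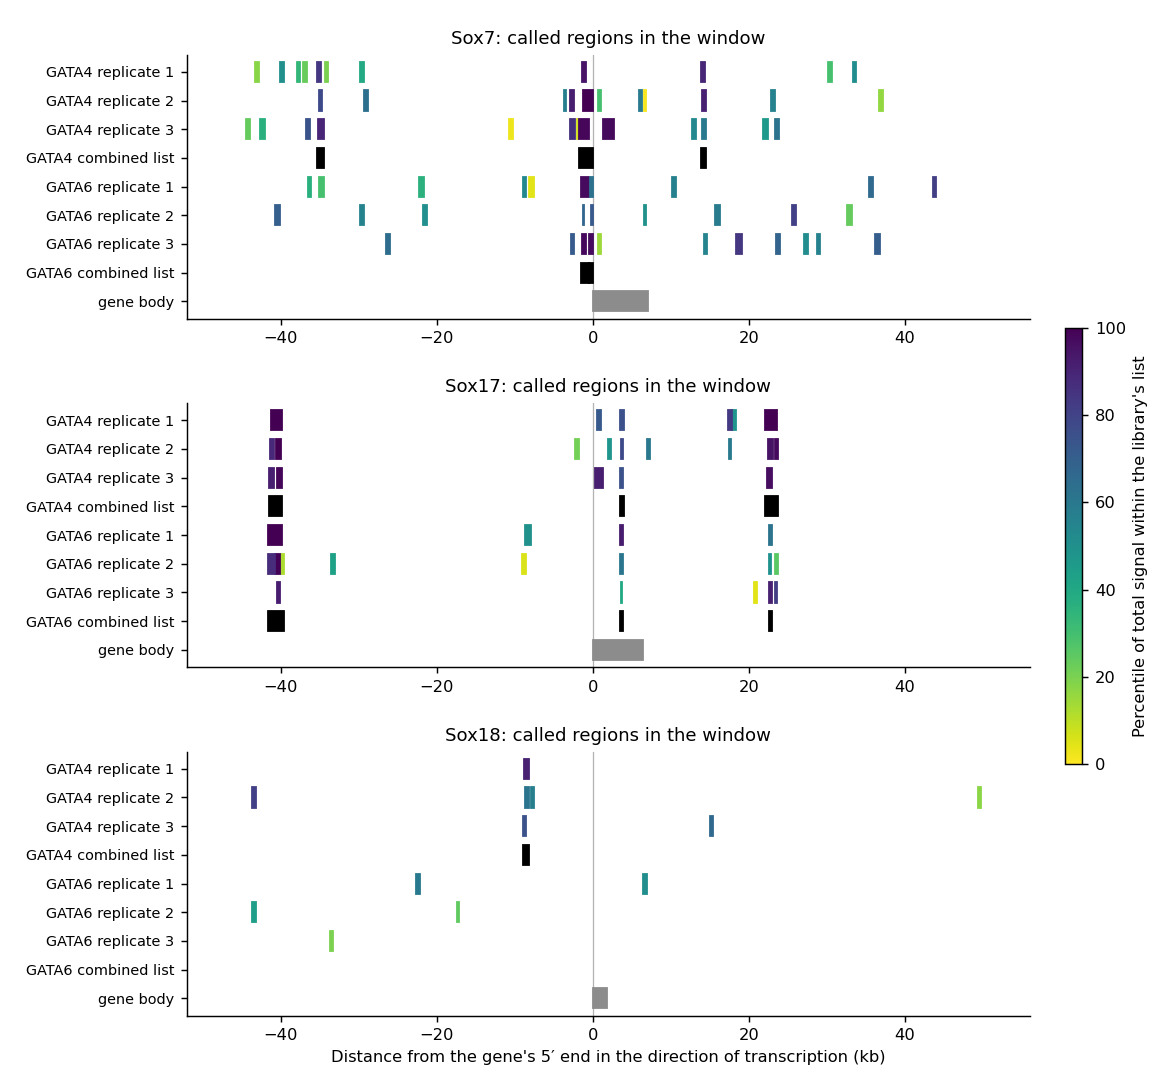
Regions called in each library and in the combined lists, by distance in kb from the 5′ end of Sox7, Sox17 and Sox18, with bars coloured by the percentile of total signal within the library's own list and combined regions in black. The 3 Sox17 places recur in every library, Sox7 has 1 such place at its promoter among many regions seen once, and Sox18 has none.

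Sox7 (ENSMUSG00000063060.6) lies at chr14:63943673-63950732 on the + strand and has a single TSS. It encodes the other F-group factor of the primitive endoderm. Its promoter was called by both factors in all replicates. The GATA4 region, chr14:63941914-63943734, runs across the TSS, and overlaps both GATA6 regions, chr14:63942212-63943183, which ends 490 bp short of the TSS, and chr14:63943209-63943739, which covers it. The GATA4 percentiles of total signal at this place were 94.6, 99.8 and 98.2, all high. The GATA6 percentiles were 97.1, 72.6 and 97.7, with replicate 2 apart from the others. Its 72.6 belongs to a region beside the TSS, and its upstream region, 173 bp wide, stood at 67.2. Each measure took the higher value of the 2 regions of that library. The means of 97.5 ± 2.63 and 89.1 ± 14.3 (SD, n = 3 each) gave a two-sided exact permutation p of 0.5, and without GATA6 replicate 2 the difference fell from 8.39 to 0.13. By signal per base pair that library was the highest of the 6, at 98.7, beside 92.1 and 96.3 for the other GATA6 libraries and 95.6, 93.7 and 83.9 for GATA4, and GATA6 averaged higher (exact permutation p = 0.4). By maximum signal the GATA4 percentiles of 97.4, 97.5 and 95.9 all lay above the GATA6 percentiles of 88.7, 93.8 and 91.9 (exact permutation p = 0.1). The mean over 6 libraries by total signal was reached by 32.6% of the regions held by all 6.

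Within the Sox7 promoter the regions of the factors were laid out differently. A summit 1154 bp upstream of the TSS was present in all 6 libraries within 80 bp. A separate region with its own summit 133 bp from the TSS was called in all 3 GATA6 libraries, at percentiles 62.2, 72.6 and 97.1. No GATA4 library called such a separate region. This layout was described after the summits were seen, and how often other places held by all 6 libraries split this way was not counted. The single GATA4 region of replicate 2 ran on to 63943734 and so covered the TSS, and those of replicates 1 and 3 ended at 63942790 and 63943164. The summit beside the TSS lay in sequence of 80.1% G and C. No GATA motif lay within 100 bp of either summit. Along the 1826 bp covered by any library there were 3, at -1393, -400 and -28 bp from the TSS.

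**Figure D2:**
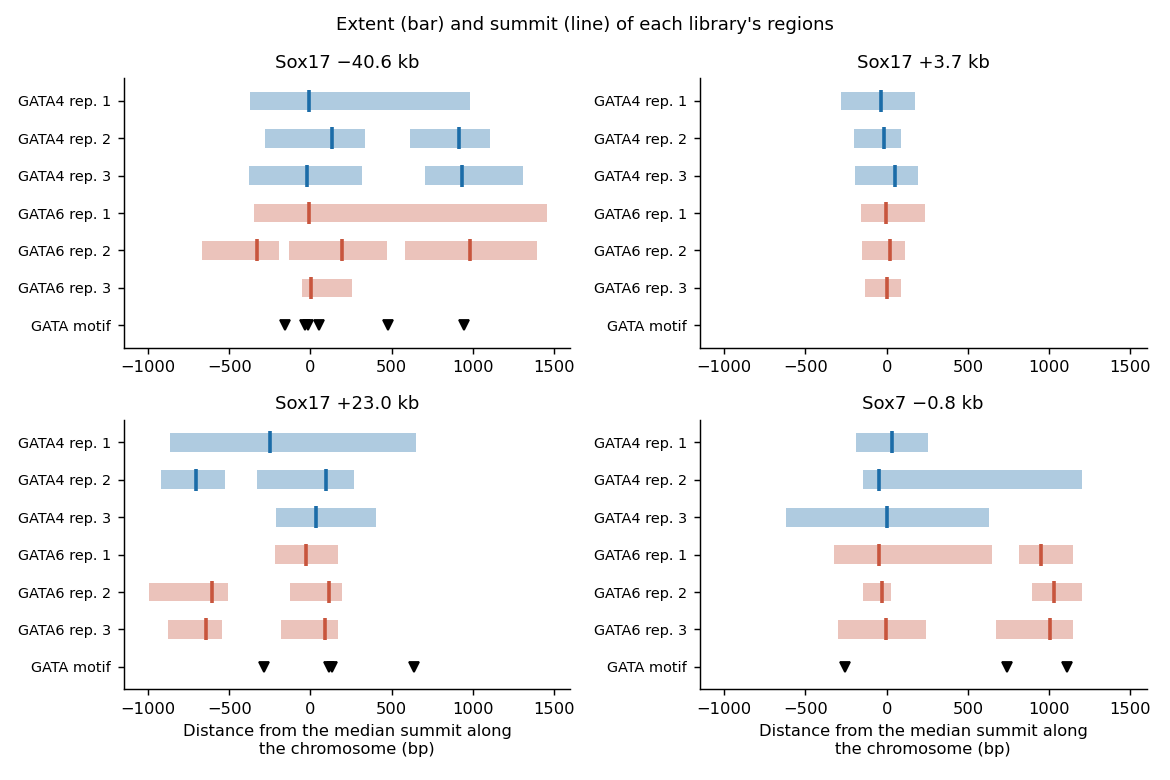
Extent (bars) and summit (vertical lines) of every library's regions at the 4 SoxF places held by all 6 libraries, in bp from the median summit along the chromosome, with GATA motifs as triangles. Summits align within 84 bp at Sox17 +3.7 kb, which has no motif. At Sox7 -0.8 kb a separate region beside the TSS is seen in the 3 GATA6 libraries only, and the region of GATA4 replicate 2 runs over the same stretch.

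The other Sox7 regions belonged to GATA4. The region chr14:63908291-63909258, at -34.9 kb, lies in an intron of Pinx1, a telomerase inhibitor gene, and 8522 bp from a Pinx1 TSS, so it is nearer to Pinx1 than to Sox7. Its GATA4 percentiles were 84.2, 77.9 and 89.8, and of the GATA6 libraries replicate 1 alone held it, at 29.6. The intergenic region chr14:63957572-63958213, 13899 bp from the Sox7 TSS, had GATA4 percentiles of 89.2, 91.0 and 59.1, and of the GATA6 libraries replicate 3 alone held it, at 54.9. Both places were thus held by 4 of 6 libraries. A further upstream region at -2.6 kb was held by GATA4 replicates 2 and 3 at 91.5 and 86.1 and by GATA6 replicate 3 at 71.8, with summits within 58 bp.

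Sox18 (ENSMUSG00000046470.5), the endothelial member, lies at chr2:181669836-181671640 on the - strand in a crowded interval, with TSSs of 5 other protein-coding genes in its window. Its 1 GATA4 region, chr2:181679808-181680613, covers the TSS of Tcea2, a transcription elongation factor gene, and lies 8168 bp from the Sox18 TSS. The percentiles were 90.9, 61.5 and 74.7, a mean of 75.7 ± 14.7 (SD, n = 3), and no GATA6 library called it. Counting only regions whose nearest TSS is the gene's own therefore left Sox18 with 0 GATA4 regions, Sox7 with 2 and Sox17 with 3. At least 1 GATA4 region in the window is common, since 48.2% of all protein-coding genes and 41% of those on the same chromosome had it, and 38.3% of all genes had a GATA6 region.

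**Figure D3:**
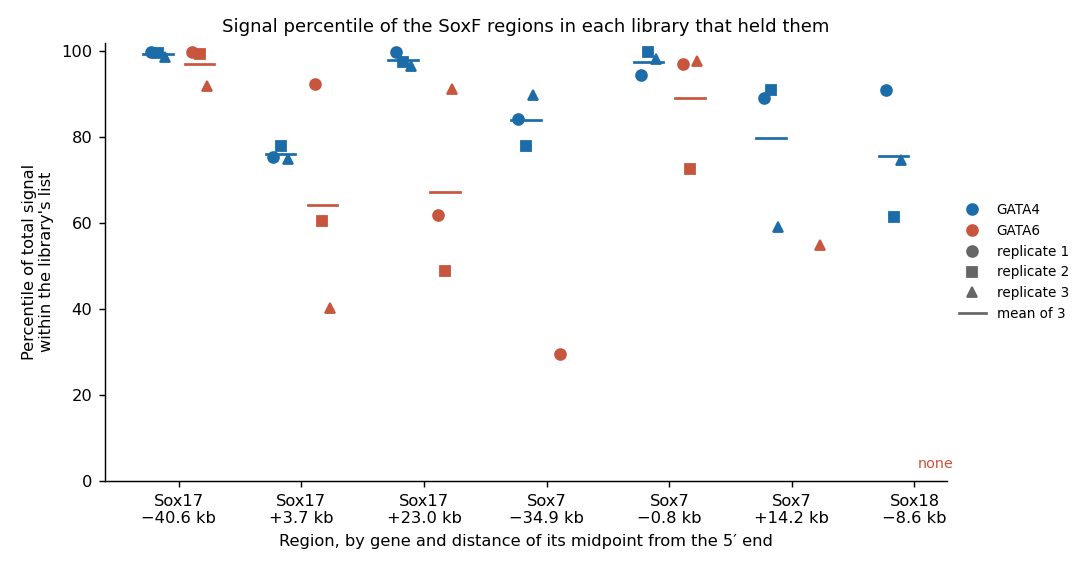
Percentile of total signal within each library's own list for the 7 places of the SoxF combined regions, GATA4 in blue and GATA6 in red, with symbols for replicates and lines for means of 3. Among the 4 places held by all 6 libraries the GATA4 and GATA6 points do not overlap at Sox17 +23.0 kb, 2 Sox7 places have a single GATA6 point, and the Sox18 place has none.

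All regions called in single libraries were then counted in each window. At Sox7 the GATA4 libraries held 11, 11 and 13 regions and the GATA6 libraries 10, 9 and 11. At Sox17 they held 6, 9 and 5 against 4, 8 and 5. At Sox18 they held 1, 4 and 2 against 2, 2 and 1. The factors overlapped at every gene, as at most genes, since library counts of the factors did not overlap at 6.85% of all protein-coding genes.

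At Sox7 the GATA4 libraries averaged 11.7 ± 1.15 regions and the GATA6 libraries 10 ± 1 (SD, n = 3 each, exact permutation p = 0.3). At Sox17 the means were 6.67 ± 2.08 and 5.67 ± 2.08 (exact permutation p = 0.6), and at Sox18 2.33 ± 1.53 and 1.67 ± 0.577 (exact permutation p = 0.9). These tests were two-sided, and each p was 0.9 after Benjamini-Hochberg adjustment over the 3 genes. The differences were 1.67, 1 and 0.667 regions. That at Sox7 exceeded the SD of either factor and those at Sox17 and Sox18 did not exceed the larger SD. The test could not decide on any of them, since 3 against 3 libraries cannot give a p below 0.1. GATA4 replicate 2, which held the most regions at Sox17 and Sox18, decided the sign at both: without it the difference was -0.167 at each gene. By covered length the windows held 6530 ± 1928 bp for GATA4 and 4987 ± 884 bp for GATA6 at Sox7, 4083 ± 768 and 2975 ± 1199 bp at Sox17, and 1158 ± 653 and 744 ± 294 bp at Sox18 (SD, n = 3 each, exact permutation p = 0.4, 0.3 and 0.5).

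**Figure D4:**
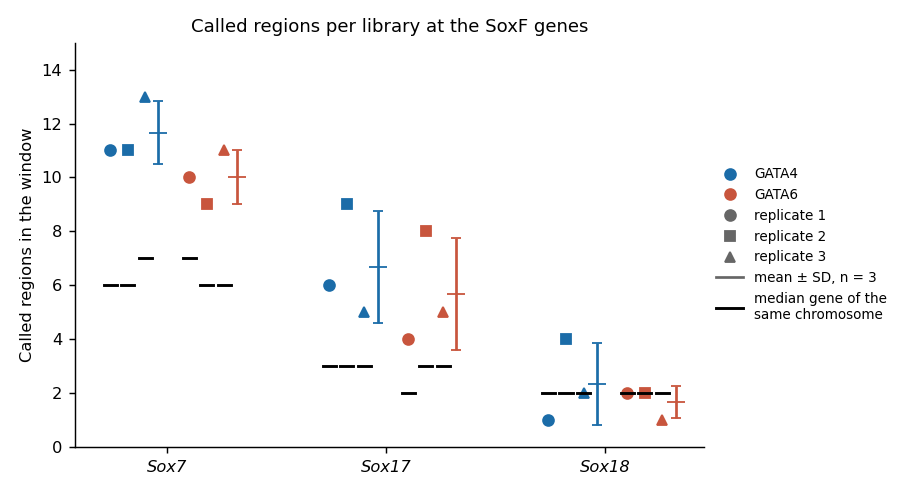
Number of regions called in each library in the windows of Sox7, Sox17 and Sox18, with the mean ± SD of 3 libraries and, as black marks, the median over the protein-coding genes of the same chromosome. Sox7 libraries hold 9 to 13 regions against medians of 6 or 7, Sox17 4 to 9 against 2 or 3, and Sox18 1 to 4 against 2.

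Of the 65 calls at Sox7, 29 (44.6%) were in 1 library only, and the 65 fell in 40 places, of which 72.5% were held by 1 library and 1 by all 6. The 37 calls at Sox17 fell in only 12 places, of which 6 (50%) were held by 1 library and 3 by all 6. At Sox18 the 12 calls fell in 9 places, 7 of them (77.8%) held by 1 library and none by more than 3. Over the whole genome 83.2% of 201994 places were held by 1 library and 1.88% by all 6, and 82.6% of those on chromosome 14 were held by 1. The chromosome of Sox7 was called more densely than the genome as a whole, with 4.36 GATA4 and 3.5 GATA6 combined regions per Mb against 3.04 and 1.9, and its genes had a median of 6 or 7 called regions per library against 2 or 3 for all genes. Against that chromosome, 17% to 31% of genes had as many called regions as Sox7 in a given library, and 24.5% had 3 or more GATA4 combined regions. For Sox17 the corresponding ranges were 9.35% to 35.1% of genes, on a chromosome whose 2.93 GATA4 and 1.91 GATA6 regions per Mb were near those of the genome. The part of this density in the Sox7 counts was not tested.

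The share of SoxF regions with a GATA motif was set beside that of the whole lists, as a description of few regions. Within 100 bp of the midpoint, which is what the combined lists allow, 3 of 7 GATA4 regions held a motif, beside 39.8% of the 8282, and 1 of 5 GATA6 regions, beside 33.1% of the 5170. Along the whole region 6 of 7 and 4 of 5 held it, beside 70.8% and 64.5%. The intron region at Sox7 -34.9 kb held 5 motifs in 968 bp, the GATA4 region at Sox17 -40.6 kb 6 in 1687 bp and the GATA6 region at Sox17 +23.0 kb 2 in 412 bp. The AP-1 motif TGANTCA was within 100 bp of the midpoint at none of the 7 or the 5, beside 7.47% and 6.91% of the lists, and AACAAT was at 1 of 7 and 0 of 5, beside 10.7% and 9.44%. Motifs were sought on both strands, and GATA and AP-1 or SOX letters were allowed to overlap.

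Of 17 Sox genes outside the F group, 5 (29.4%) had a GATA4 region and 4 (23.5%) a GATA6 region, 12 had neither, and the median was 0 for both factors. Over all protein-coding genes 48.2% and 38.3% had a region, 10386 of 21938 had neither, and the medians were likewise 0. Sox15, the G-group member, had 3 GATA4 and 1 GATA6 regions. Its libraries held 13, 6 and 5 regions for GATA4 and 2, 5 and 7 for GATA6, a spread wider than at Sox7 or Sox17. Next in GATA4 regions, with 1 each, were Sox12, Sox10, Sox8 and Sox6. Sox12, of the C group, had 2 GATA6 regions, Sox10, the neural crest factor of the E group, and Sox8 had 1, and Sox6 had 0. Sox2, the pluripotency factor, had none, and its libraries held 0, 0 and 2 regions for GATA4 and 1, 0 and 0 for GATA6. Sox17 was the only Sox gene of the 20 with 3 regions of both factors in the 50 kb window. Beyond the Sox family this was not particular to it, since 7 of the 18 genes of primitive endoderm formation listed below had 3 or more of both. The share over all protein-coding genes was 5.26%, and the windows of the listed genes differ in length.

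**Figure D5:**
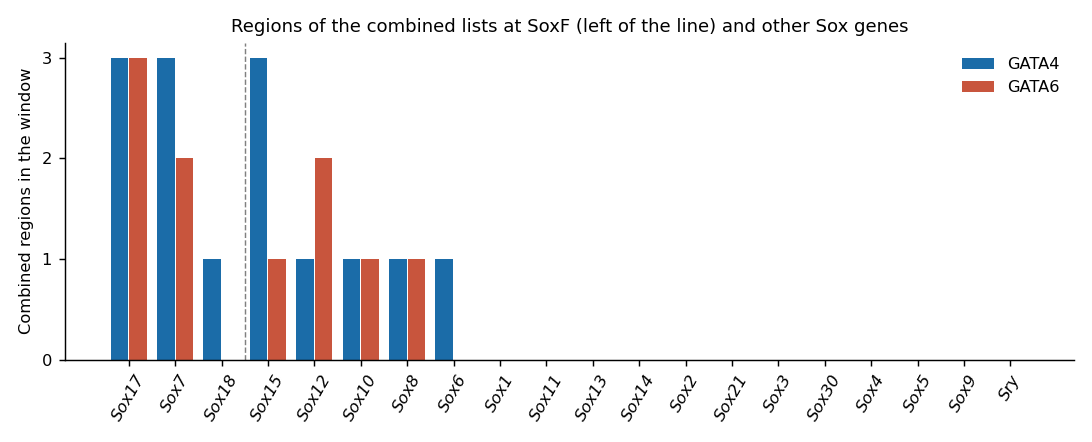
Number of GATA4 (blue) and GATA6 (red) combined regions in the windows of the 3 SoxF genes, left of the dashed line, and 17 other Sox genes. Sox17 and Sox7 have 3 GATA4 regions each, as does Sox15, and 12 Sox genes have no region of either factor.

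Of 18 other genes of primitive endoderm formation, the receptors, transcription factors and matrix proteins listed with them, 16 (88.9%) had a GATA4 region and 13 (72.2%) a GATA6 region, beside 48.2% and 38.3% of all genes, and their medians were 4 and 2 regions. Fgf4, which encodes the growth factor that induces the lineage, and Lrp2, which encodes an endocytic receptor, had neither. With 3 GATA4 regions each, Sox17 and Sox7 lay below the GATA4 median of that list. For GATA6, Sox17 with 3 lay above the median and Sox7 with 2 lay at it. Both of the Sox7 GATA6 regions lay at its promoter and overlapped the same GATA4 region. Foxa2, a forkhead factor of endoderm, had 5 GATA4 regions and no GATA6 region, and Pdgfra, the receptor that marks XEN cells, had 4 and 2. These genes were listed with earlier results of these data in view, and their windows differ in length with the genes, that of Fgfr2, with 13 GATA4 regions, being the longest of the list through its annotated span, so the share was not tested against that of all genes.

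The genes most like each member were sought by the number of called regions in each of the 6 libraries. The nearest to Sox7 were Ano8, Gtpbp3 and Adamts9, each with a summed difference of 4 regions over the 6 libraries, as had 5 genes in all. The nearest to Sox17 were Alkbh6 and Mapk8ip1, with 2, and Clip3, with 3. Zbtb43 had exactly the counts of Sox18, and Tmprss12 and Ap3s2 were 2 of 13 genes that differed by 1. Genes tied on the sum were ordered by how close their mean highest percentile in the window lay to that of the member. Closeness on that value at genes picked from a tie therefore followed from the choice. The mean of the highest percentile in the window was 98.2 at Sox17, above the 94.4, 88.2 and 94.4 of its 3 nearest genes, and 94.8 at Sox7 beside 95.9, 95.9 and 96.7. At Sox18 it was 61.7, beside 80.2, 59.1 and 66.5. Some of these genes are neighbours of one another and share regions.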

How the data were processed

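Read pairs were mapped to mm10 by the authors (bowtie2 2.3.4.1), who discarded duplicate and poorly mapped reads, those on the mitochondrial genome and those in blacklisted regions, and called regions in each library with SEACR 1.3 at a numeric threshold, with no normalisation and, as described, no IgG control. The deposited list of each library gives positions, the total signal (fragment pileup summed over the region) and the maximum signal, neither scaled for depth, so signal was compared only as a percentile within a list. The deposited combined lists hold positions only, and equalled the merged regions called in all 3 libraries of a factor (8282 of 8282 and 5170 of 5170). The lists held 42446 to 49597 regions. The labels state 30000000 reads per sample. How many reads passed the filters is not given in the sources used here, so precision is the SD over 3 libraries.

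Groups and replicate numbers were taken from the sample titles. Genes, TSSs (all transcripts) and features came from GENCODE release M21, and sequence from GRCm38.p6, the assembly of mm10. Overlap meant at least 1 bp. Regions of the 6 lists that overlapped or touched were merged into places. Where a library had several regions in a place, the highest percentile was used, separately for each measure of signal, and the region with the highest total signal gave the leading summit. Counts and percentiles were compared by two-sided exact permutation tests. Summits no more than 250 bp from the next were grouped, a step chosen after the data were seen.

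The members, gene lists and tests were chosen with earlier results of these data known. Within the windows, combined regions and places held by at least 4 libraries are named, and others named were chosen after their values were seen. Of the other Sox genes, the 3 with the most GATA4 regions are named (ties by GATA6 regions, then by name), with Sox8 and Sox6 added after their values were seen, and so are the 3 genes most like each member with no TSS within 200 kb of it. Sox2, Fgf4, Lrp2, Foxa2 and Pdgfra were named after their values were seen. Alternatives covered the window, the overlap rule, the replicates required, stricter lists (the stronger 50% of each list), lists of equal length (42446 regions), covered length, the motif and its window, the measure of signal and leaving out each library. Window counts, merging, motif search and percentiles were tested on simulated data. Python 3.11.15, numpy 2.4.6, scipy 1.17.1 and matplotlib 3.10.9 were used.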

Additional observations from a re-analysis of the deposited data

How the results depend on the processing

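Of 160 alternative values, 128 stayed within the margin set for them, 25 moved and 7 changed direction. A window of 100 kb gave 5 GATA4 and 4 GATA6 regions at Sox7 and 2 GATA4 regions at Sox18, and a share of all genes with a region of 59.89% for GATA4 and 49.94% for GATA6. A window of 25 kb gave shares of 38.46% and 29.15%. It left 2 GATA4 regions at Sox7 and 2 regions of each factor at Sox17, counts that were within the margin. The regions at Sox7 -34.9 kb and Sox17 -40.6 kb lay outside it. Regions of at least 2 of 3 libraries numbered 6 at Sox7 for GATA4 and 5 for each factor at Sox17, with shares of 65.33% and 60.45%. Stricter lists left 1 GATA6 region at Sox17, and counting only regions nearest to the gene's own TSS, an alternative chosen after seeing the data, left 0 GATA4 regions at Sox18. On chromosomes 1, 2 and 14 alone the GATA4 share was 46.24%. With 1 library left out, the shares ranged from 54.55% to 56.38% for GATA4 and from 47.36% to 48.47% for GATA6, fewer libraries being required. The factor difference ranged from -0.167 to 2.17 regions at Sox17 and from -0.167 to 1.33 at Sox18 with 1 library left out, the negative values being those without GATA4 replicate 2. A GATA motif anywhere in the region was found in 6 GATA4 and 4 GATA6 regions, and within 250 bp of the midpoint in 3 GATA6 regions. By signal per base pair the Sox18 region stood at percentile 57.82. In alternatives chosen after seeing the data, the percentile difference between the factors turned to -4.634 at Sox7 -0.8 kb by signal per base pair, and at Sox17 +3.7 kb to -13.46 by signal per base pair and -11.34 by maximum signal. Leaving out 1 library gave 9.852 to 25.73 at Sox17 +3.7 kb apart from -0.367 without GATA6 replicate 3, and 2.114 to 3.791 at Sox17 -40.6 kb apart from -0.1809 without GATA6 replicate 3.

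With the replicate number as a block, the differences were 1.667, 1 and 0.667 regions at Sox7, Sox17 and Sox18 (exact sign-flip permutation p = 0.25, 0.5 and 0.75, where 0.25 is the smallest possible). With so few libraries no call could have changed. Libraries of the same number did not deviate together (correlations of 0.00102, 0.00148 and 0.00118), so the numbers were not taken to pair the samples. Region calls rest on few fragments, with a median maximum of 4 in every list, so a region absent from a library was not detectable at its depth and threshold rather than shown to be absent.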

Other observations

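Single libraries held some strong SoxF regions that no other library called. An intronic Sox7 region, chr14:63944923-63946351, 1250 bp from the TSS, stood at percentile 97.3 in GATA4 replicate 3 and was called in no other library. A region at Sox7 +43.8 kb, in a noncoding exon of 4930578I06Rik, stood at 81.5 in 1 GATA6 library alone. At Sox18, the place at -43.4 kb, in an untranslated exon of Oprl1, was held by 1 library of each factor with a mean percentile of 62.7. The weakest Sox7 places were held by 1 library at percentiles of 2.52, 4.41 and 6.69.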
